A study of Mus musculus with 9 samples.

Results

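The cytosolic ribosomal protein genes were followed in inflamed mouse skin. The members were taken by name: symbols that start with Rpl or Rps, go on with a number and end there or after 1 more letter, and symbols of the form Rplp with 1 digit, while names with the pseudogene suffix -ps were left out. The pattern took 82 of the 56859 genes and loci in the count table, 51 of the large subunit and 31 of the small subunit. Enough reads for a test were counted for 80 of them. Rpl10l had no count in any library and Rpl24 had 1 to 10 counts per library, so neither was tested.

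RNA came from the shaved back skin of wild-type SPF Balb/c mice aged 6 to 8 weeks, with 3 libraries in each of 3 groups. The control group received vaseline over 7 days. The IMQ group received imiquimod, a Toll-like receptor agonist that is applied to mouse skin to induce a psoriasis-like inflammation, over 7 days. The third group received imiquimod over 7 days together with a gel of bergapten, a plant furanocoumarin, over 2 days, and the labels describe no imiquimod group that received a gel without bergapten.

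Each cytosolic ribosome joins a small subunit, which reads the messenger RNA, to a large subunit, which forms the peptide bond, and the ribosomal proteins hold and shape the ribosomal RNA of both. Their genes are known for being expressed together at high levels, for messenger RNAs that start with a run of pyrimidines and are translated under the control of the mTOR kinase, and for many processed pseudogenes that copy their coding sequence. Skin keratinocytes that divide need new ribosomes, and several tissues use paralogs of single ribosomal proteins.

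Between 15855439 and 19862905 reads per library were counted to genes, and 18005 genes entered the tests. The labels do not say whether the replicates were separate animals, so a p-value here rests on the spread among the deposited libraries, part of which may be technical. The levels of cell type markers differed between the groups. In IMQ against vaseline 9 of 10 keratinocyte markers rose and 1 fell, while 9 of 10 fibroblast markers fell and 1 rose. Over all genes tested 23.0% were called higher and 20.2% lower. The summed level of 10 keratinocyte markers was between 9067 and 9736 CPM (read counts brought to one library size) in vaseline skin, between 25340 and 29210 in IMQ skin and between 28490 and 29760 with bergapten. The summed level of 10 fibroblast markers was 108100 to 116500, 9591 to 22210 and 25990 to 33640 CPM in the same order. For 10 skeletal muscle markers it was 17150 to 18380, 4381 to 6324 and 4333 to 4654 CPM. For 12 leukocyte markers it was 2160 to 2295, 1728 to 2736 and 3244 to 3643 CPM. Of these 12 genes 7 rose in IMQ and 1 fell (median log2 fold change 1.25). The abundant Cd74 fell from 1097 to 435 CPM on average (edgeR adjusted p = 0.000176), and Csf3r rose from 14.1 to 78.8 CPM (adjusted p = 0.00118). Adipocyte markers (8 genes) summed to 3635 to 3765 CPM in vaseline, 4005, 970 and 1708 CPM in the IMQ libraries and 1787 to 2182 CPM with bergapten. Hair follicle and sebocyte markers (12 genes) summed to 891 to 1019 CPM in vaseline, 155, 157 and 698 CPM in the IMQ libraries and 122 to 191 CPM with bergapten. IMQ replicate 1 thus stood apart in the former and IMQ replicate 3 in the latter. The 12 hair follicle and sebocyte genes did not move together: 1 rose and 4 fell in IMQ, and 7 lay above 0 (median log2 fold change 0.90). The abundant Scd3 fell from 614 to 19.5 CPM on average (edgeR adjusted p = 0.000182). The sum was 219 to 275, 278 to 624 and 692 to 824 CPM for 10 markers of dividing cells. None of these markers was without counts. Their part in the results below was not tested, and in bulk tissue fewer cells of a type and less RNA per cell cannot be told apart. One library, bergapten replicate 2, held 1.79% of its counts on the 18S ribosomal RNA gene Rn18s, against at most 0.270% in every other library.

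Ribosomal protein genes took a larger part of the counted reads in both imiquimod groups. Their share was 3.14%, 3.00% and 3.01% in the 3 vaseline libraries, 4.66%, 4.93% and 4.96% in the IMQ libraries and 4.19%, 4.24% and 4.30% in the bergapten libraries. The 3 groups did not overlap, and the bergapten libraries lay between the others. The group means were 3.05% ± 0.0792, 4.85% ± 0.165 and 4.24% ± 0.0586 (SD, n = 3). Both subunits moved together. Large subunit genes held 1.42 ± 0.0225 times the counts of small subunit genes in vaseline, 1.41 ± 0.0159 times in IMQ and 1.44 ± 0.0186 times with bergapten (SD, n = 3), and the ratio of no library fell outside 1.40 to 1.46.

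**Figure D1:**
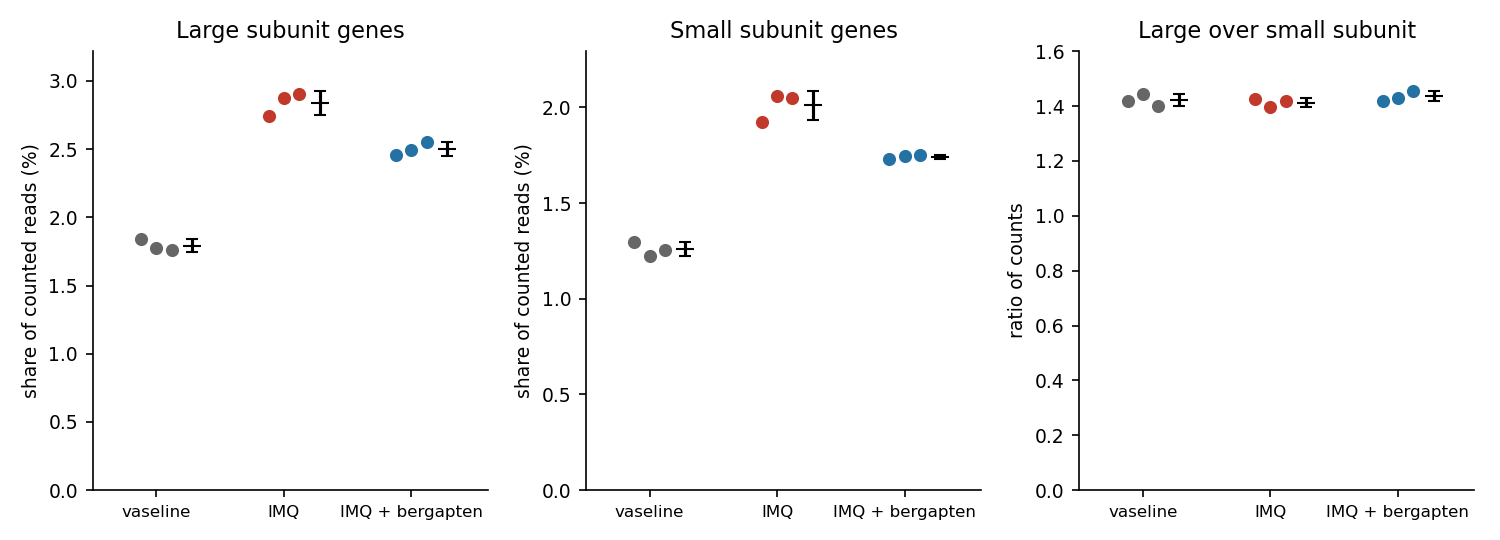
Share of counted reads (%) on large subunit genes and on small subunit genes, and the ratio of both sums, in each of the 9 libraries. Points are libraries and bars are the mean with SD (n = 3). Both shares are lowest in vaseline and highest in IMQ, while the ratio stays between 1.40 and 1.46.

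In IMQ skin nearly the whole set stood above vaseline skin. Of the 80 genes tested, 70 rose and 1, Rpl3l, fell (edgeR quasi-likelihood test, Benjamini-Hochberg adjusted p under 0.05 over all genes tested), while 43.2% of all genes tested were called, 23.0% higher and 20.2% lower. The median log2 fold change was 0.65, a fold of 1.57, with quartiles of 0.55 and 0.70, beside a median of 0.03 over all genes. The groups did not overlap, with IMQ higher, for 71 of the 80 members and for 26.9% of all genes tested, and with IMQ lower for 2 members and 25.4% of all genes. Among large subunit genes 44 of 49 rose (median log2 fold change 0.65), and among small subunit genes 26 of 31 rose (median 0.64). Members with a mean level of 100 CPM or more accounted for most of this: 61 of 63 rose, against 9 of 17 below that level.

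Rps3, which lies where messenger RNA enters the small subunit, had the smallest p of all members. Its level was 898, 906 and 913 CPM in vaseline, 1538, 1634 and 1490 CPM in IMQ and 1183, 1259 and 1284 CPM with bergapten. The 3 groups were fully separated, with the bergapten libraries in the middle. The log2 fold change of IMQ against vaseline was 0.78 ± 0.07 (SE; adjusted p = 2.91e-05, edgeR). Rps23, a protein of the decoding centre, stood at 613, 631 and 580 CPM in vaseline, 1010, 1117 and 1074 CPM in IMQ and 786, 916 and 869 CPM with bergapten. It rose by a log2 fold change of 0.81 ± 0.09 (SE; adjusted p = 5.09e-05). Rpl12, which lies at the base of the large subunit stalk, gave 618, 601 and 613 CPM, then 986, 1199 and 1063 CPM, then 857, 896 and 919 CPM. Its log2 fold change in IMQ was 0.82 ± 0.09 (SE; adjusted p = 5.17e-05), and again no bergapten library reached an IMQ library.

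The stalk proteins Rplp0, Rplp1 and Rplp2 recruit the factors that drive translation, and all 3 of their genes rose. Rplp1 had the highest deposited FPKM (a level per length assigned to the gene) of all members. Its level was 1035, 1003 and 940 CPM in vaseline, 1441, 1547 and 1474 CPM in IMQ and 1237, 1289 and 1361 CPM with bergapten. The log2 fold changes in IMQ were 0.58 ± 0.08 for Rplp1, 0.59 ± 0.09 for Rplp0 and 0.70 ± 0.09 for Rplp2 (SE; adjusted p = 0.000231, 0.000548 and 0.000215). Rpl5 and Rpl11 carry the smallest ribosomal RNA into the large subunit and, when free, bind the p53 regulator Mdm2. Rpl11 was at 519, 534 and 506 CPM in vaseline, 834, 847 and 812 CPM in IMQ and 671, 727 and 719 CPM with bergapten, without overlap between groups. The log2 fold change in IMQ was 0.68 ± 0.07 for Rpl11 and 0.56 ± 0.08 for Rpl5 (SE; adjusted p = 5.33e-05 and 0.000455). Rps6, the member phosphorylated by a kinase downstream of mTOR, was at 715, 703 and 725 CPM in vaseline and 1033, 1245 and 1163 CPM in IMQ, a log2 fold change of 0.68 ± 0.08 (SE; adjusted p = 0.000137). Rpl10, which joins the large subunit as one of its last proteins, was among the smaller rises, with 692, 704 and 712 CPM in vaseline and 846, 979 and 917 CPM in IMQ. Its log2 fold change was 0.38 ± 0.08 (SE; adjusted p = 0.00309). Of the 10 members whose human counterparts are mutated in Diamond-Blackfan anaemia, 9 rose (median 0.64), close to the whole set with 70 of 80 and a median of 0.65. One of them, Rps19, rose by 0.54 ± 0.09 (SE; adjusted p = 0.00109).

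**Figure D2:**
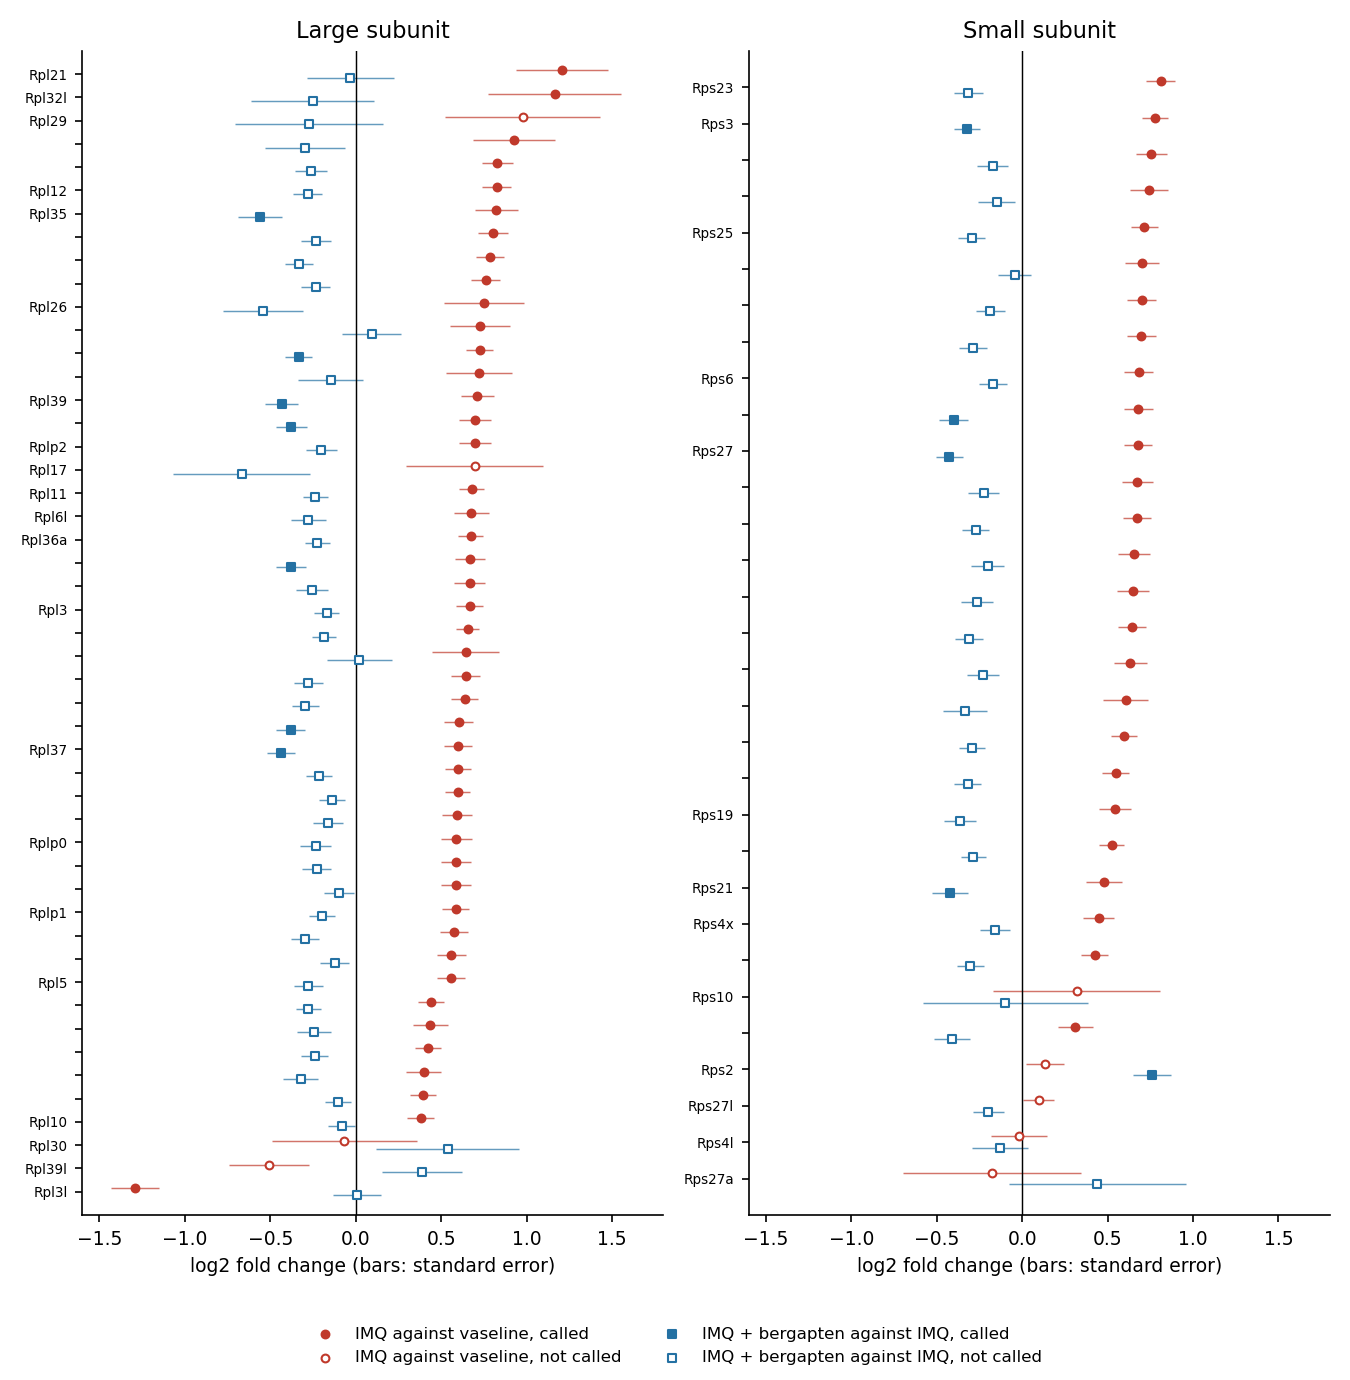
Log2 fold change with its standard error for each of the 80 members tested, by subunit and sorted by IMQ against vaseline, with names on the members whose tests are given in the text. Red circles show IMQ against vaseline and blue squares IMQ + bergapten against IMQ, filled where the adjusted p was under 0.05. The red circles of 75 members lie above 0 and the blue squares of 73 members lie below 0.

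Levels between genes were compared on the deposited FPKM, and their order depends on the length assigned to each gene. The length implied by counts and FPKM was 499 bases for Rplp1, 3183 for Rps3 and 5179 for Rps15a, whose coding sequence has 390 bases. Rplp1 and Rps3 had similar mean levels of 1258 and 1234 CPM but 2530 and 389 FPKM. Averaged over the 9 libraries, Rplp1 stood highest with 2530 FPKM, followed by Rpl41 with 1492, Rps15 with 1487, Rps4x with 1177 and Rpl4 with 1123. Rpl41 (953 to 1081 FPKM in vaseline) and Rps15 (1240 to 1276) did not keep one order in every group: Rps15 had the higher mean in vaseline, and Rpl41 in IMQ (1865 ± 196 against 1745 ± 79.1) and with bergapten (1603 ± 103 against 1463 ± 48.5; SD, n = 3). At the other end, Rpl21 averaged 1.64 FPKM, Rpl24 0.503 FPKM, and Rpl10l was listed at 0. Ribosomal proteins are mostly present once in each ribosome. The coding sequences were searched next for stretches shared with other genes, and whether such sharing shapes the low end of this order was not tested.

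Most members have copies elsewhere in the genome that share part or most of their coding sequence. For 58 of the 79 members with a coding sequence in the GENCODE M21 annotation, more than 50% of all windows of 75 coding bases were also found in another gene, and for 23 all of them were. Another gene could here be another member or a gene that overlaps the member, and both were left out of the copies below. The search found 503 copies, 480 of them of processed pseudogene types, and 410 of the copies had counts in these libraries. The sources used here do not say how reads that match several genes were counted. Coding stretches of 60 bases show how little separates such pairs, with the differing bases in capitals (from GENCODE M21, the copy under each member). No stretch of that length in the pair holds more differences than the one shown.
Rpl30: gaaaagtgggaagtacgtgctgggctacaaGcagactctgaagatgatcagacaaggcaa
Gm12191: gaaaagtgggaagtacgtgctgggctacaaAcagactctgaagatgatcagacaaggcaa
Rpl26: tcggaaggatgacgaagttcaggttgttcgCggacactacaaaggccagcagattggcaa
Gm15772: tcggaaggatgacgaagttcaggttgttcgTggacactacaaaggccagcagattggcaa
Rpl30 and Gm12191 differed at 1 of 345 coding bases and Rpl26 and Gm15772 at 2 of 435.

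Copies held over 50% of the summed counts of 13 members and under 5% of those of 41 members. Rpl30, a large subunit protein, was counted at 10.5, 11.7 and 25.8 CPM in vaseline, 21.6, 12.8 and 11.5 CPM in IMQ and 24.4, 13.8 and 28.4 CPM with bergapten. The libraries of one group differed by more than the groups did, and the row was not called in IMQ against vaseline (log2 fold change -0.07 ± 0.42 SE, adjusted p = 0.915). With the copies of Rpl30 added, which held 94.6% of the sum, the levels were 277, 279 and 291 CPM in vaseline, 362, 382 and 355 CPM in IMQ and 320, 353 and 335 CPM with bergapten. On that sum IMQ lay above vaseline in all libraries, with a log2 fold change of 0.38 ± 0.07 (SE; adjusted p = 0.00238, edgeR).

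Summing narrowed the spread of several other members whose sums lay mostly on copies, but not of all. The largest coefficient of variation within a group went from 53.2% to 4.99% for Rpl30, from 39.8% to 9.80% for Rpl17, from 65.3% to 8.49% for Rps10 and from 61.6% to 6.29% for Rpl29 when copies were added. It moved little for Rps2 (14.2% to 13.5%) and was larger for Rplp0 (9.72% to 11.2%). Over all members it exceeded 20% for 15 genes on their own row and for 5 genes with copies added. On their own rows Rpl17, at the peptide exit tunnel, gave a log2 fold change of 0.70 ± 0.40 in IMQ (SE; adjusted p = 0.198), Rps10 0.32 ± 0.49 (adjusted p = 0.63) and Rpl29 0.98 ± 0.45 (adjusted p = 0.107). With copies added the 3 values were 0.57 ± 0.09, 0.51 ± 0.08 and 0.46 ± 0.08, and each sum passed the test (adjusted p = 0.000514, 0.000774 and 0.00103). Copies held 71.1%, 98.4% and 98.8% of these sums. These tests thus mostly read the counts on copies and do not show that the members themselves rose. Rpl26, whose copies held 97.4% of its sum, rose by 0.75 ± 0.24 on its own row (adjusted p = 0.0269) and by 0.54 ± 0.08 with copies added (adjusted p = 0.000351). The own-row call of Rpl26 was lost without IMQ replicate 1 (adjusted p = 0.0835), without vaseline replicate 2 (adjusted p = 0.0563) and with only the 6 compared libraries (adjusted p = 0.0612), and that of Rpl29 was gained without vaseline replicate 1 (log2 fold change 1.55, adjusted p = 0.0289). Rpl21 went the other way. Its own row of 21 to 83 counts per library rose by 1.21 ± 0.27 (adjusted p = 0.00489), and its sum, with 96.4% on copies, gave -0.06 ± 0.10 (adjusted p = 0.646). Most of that sum was counted to BC004004, a long gene on chromosome 17 whose transcripts hold 65.8% of the 31-base coding windows of Rpl21. With copies added for every member, 74 of 81 members rose and 1 fell in IMQ, and 23.3% of all genes in that fit were called higher. This summing was chosen after the data were seen.

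**Figure D3:**
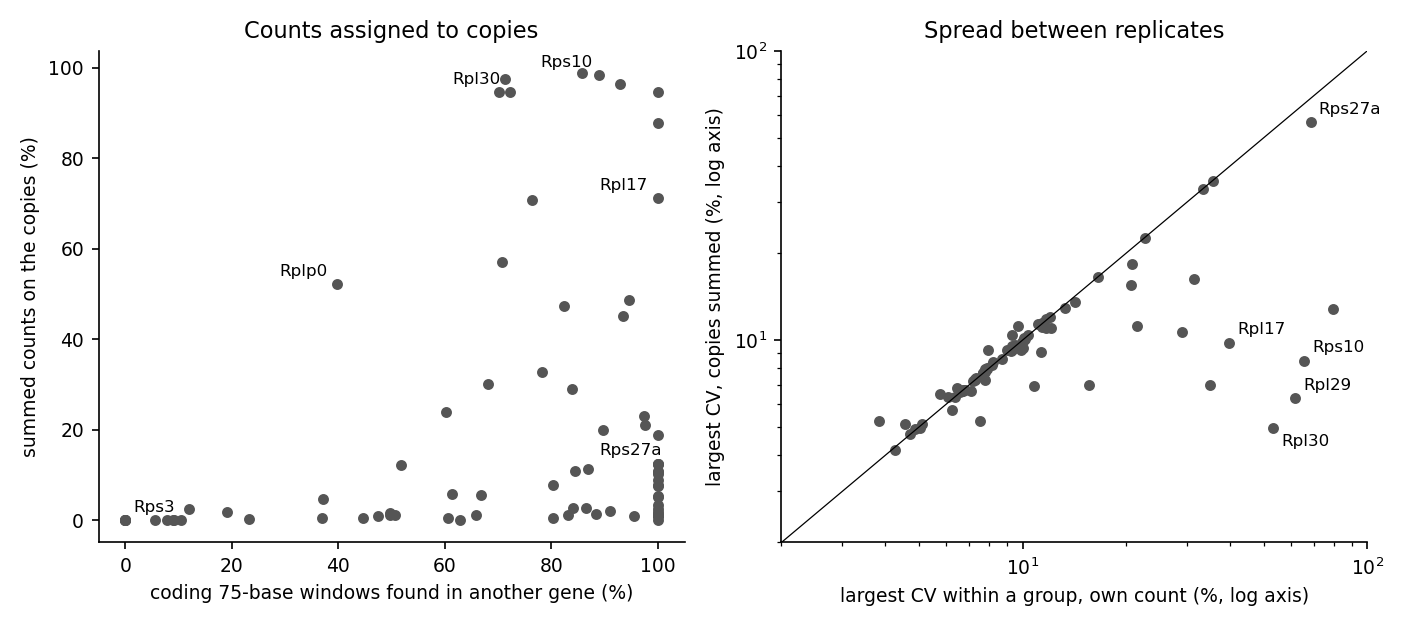
Left, share of a member's summed counts that lay on other genes holding at least 30% of its 31-base coding windows (%), against the share of its 75-base coding windows found in another gene (%). Right, the largest coefficient of variation within a group (%), with copies summed against the own row alone, both on log axes with the line of equality. Rpl30, Rps10, Rpl29 and Rpl17 fall far below the line, and Rps27a lies close to it.

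Rps27a, which is made as a fusion with ubiquitin, stayed uneven in both forms. Its level was 420, 137 and 148 CPM in vaseline, 219, 210 and 196 CPM in IMQ and 480, 189 and 180 CPM with bergapten. Vaseline replicate 1 and bergapten replicate 1 stood far above their groups, and copies held 12.5% of its sum. The log2 fold change in IMQ was -0.18 ± 0.52 (SE; adjusted p = 0.811), and without vaseline replicate 1 it was 0.52 (adjusted p = 0.377).

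A few members are paralogs of another member and are used in particular tissues. Rpl3l takes the place of Rpl3 in mouse heart and skeletal muscle, Rpl39l and Rpl10l are known from male germ cells, and Rps27l is a p53 target. Unlike the pseudogene copies above, Rpl3l and Rps27l differ from their partners at many coding bases. The stretch of 60 coding bases with most differences is shown for each pair (differing bases in capitals, GENCODE M21). These stretches hold 25 and 19 differences and are not typical of the whole coding sequence.
Rpl3: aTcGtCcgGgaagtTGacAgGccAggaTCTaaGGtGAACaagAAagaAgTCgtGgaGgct
Rpl3l: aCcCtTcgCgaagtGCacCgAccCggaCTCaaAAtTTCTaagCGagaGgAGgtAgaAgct
Rps27: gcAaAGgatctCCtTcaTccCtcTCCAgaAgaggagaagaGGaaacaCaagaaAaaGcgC
Rps27l: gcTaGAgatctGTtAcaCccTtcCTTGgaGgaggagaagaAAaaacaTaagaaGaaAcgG
Over the aligned coding bases the identity was 74.3% for Rpl3 and Rpl3l and 76.2% for Rps27 and Rps27l.

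Rpl3l was the 1 tested member that fell in IMQ skin, while Rpl3 rose. Rpl3 was at 477, 483 and 475 CPM in vaseline, 706, 798 and 772 CPM in IMQ and 644, 704 and 675 CPM with bergapten. Rpl3l was at 78.8, 80.8 and 83.2 CPM in vaseline, 25.1, 34.3 and 39.8 CPM in IMQ and 33.5, 33.8 and 32.4 CPM with bergapten. Every imiquimod library, with or without bergapten, lay below every vaseline library for Rpl3l and above it for Rpl3. The log2 fold change in IMQ was -1.29 ± 0.14 for Rpl3l and 0.67 ± 0.08 for Rpl3 (SE; adjusted p = 6.93e-05 and 9.49e-05), and Rpl3l stayed low with bergapten (against vaseline -1.28 ± 0.14, adjusted p = 8.8e-05). Per 100 counts of Rpl3, the vaseline libraries held 16.5 to 17.5 counts of Rpl3l, the IMQ libraries 3.55 to 5.16 and the bergapten libraries 4.80 to 5.20. Skeletal muscle markers fell alongside, 10 of 10 in IMQ with a median log2 fold change of -1.71. Rpl3l per 1000 CPM of these markers was between 4.44 and 4.59 in vaseline, between 5.42 and 6.91 in IMQ and between 7.19 and 7.52 with bergapten. On that scale the imiquimod libraries lay above the vaseline libraries. The scale leans on abundant markers such as Acta1 (6483 CPM on average in vaseline, log2 fold change -2.19 in IMQ). Single markers ran from -4.929 to -1.055 in IMQ, with quartiles of -2.764 and -1.479. Rpl3l at -1.29 lay within that range but above the upper quartile, so it fell less than most of the markers. The part of muscle in its fall was not tested.

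Rps27l, Rpl39l and Rps4l did not pass the test in IMQ, while their partners rose. Rps27 was at 207, 206 and 210 CPM in vaseline, 326, 357 and 314 CPM in IMQ and 236, 265 and 242 CPM with bergapten, a log2 fold change of 0.68 ± 0.08 in IMQ (SE; adjusted p = 0.000113). Rps27l was at 65.0, 75.5 and 64.0 CPM, 70.7, 73.4 and 74.8 CPM, and 58.0, 67.8 and 65.0 CPM, with groups that overlapped and a log2 fold change of 0.10 ± 0.09 in IMQ (SE; adjusted p = 0.419). Per 100 counts of Rps27, the vaseline libraries held 30.6 to 36.7 counts of Rps27l, the IMQ libraries 20.6 to 23.8 and the bergapten libraries 24.6 to 26.9. Rpl39, which lines the peptide exit tunnel, rose by 0.71 ± 0.10 (SE; adjusted p = 0.000239), while Rpl39l had a log2 fold change of -0.51 ± 0.24 (adjusted p = 0.108), with IMQ libraries of 8.67, 6.14 and 7.51 CPM all below vaseline libraries of 11.8, 10.2 and 9.62 CPM. Rpl39l was called lower without bergapten replicate 1 (adjusted p = 0.0374) and with the replicate block (adjusted p = 0.0493). Rps4x rose by 0.45 ± 0.09 (adjusted p = 0.00238), and Rps4l, at 13.1 to 18.8 CPM in all libraries, had a log2 fold change of -0.02 ± 0.16 (adjusted p = 0.933). Another pair of members with the same suffix rose, Rpl6l by 0.68 ± 0.10 (adjusted p = 0.000536) and Rpl32l by 1.16 ± 0.39 (adjusted p = 0.0342). Rps4l, Rpl6l and Rpl32l had no coding sequence in GENCODE M21, so the search for copies did not cover them. Whether their rows hold reads of Rps4x, Rpl6 or Rpl32 was not tested. Rpl32l stood at 0.383 to 1.72 CPM in all libraries and was not called without the filter on low counts (adjusted p = 0.0723), nor without vaseline replicate 1 or 3, IMQ replicate 3 or any bergapten library (adjusted p = 0.0555 to 0.137).

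**Figure D4:**
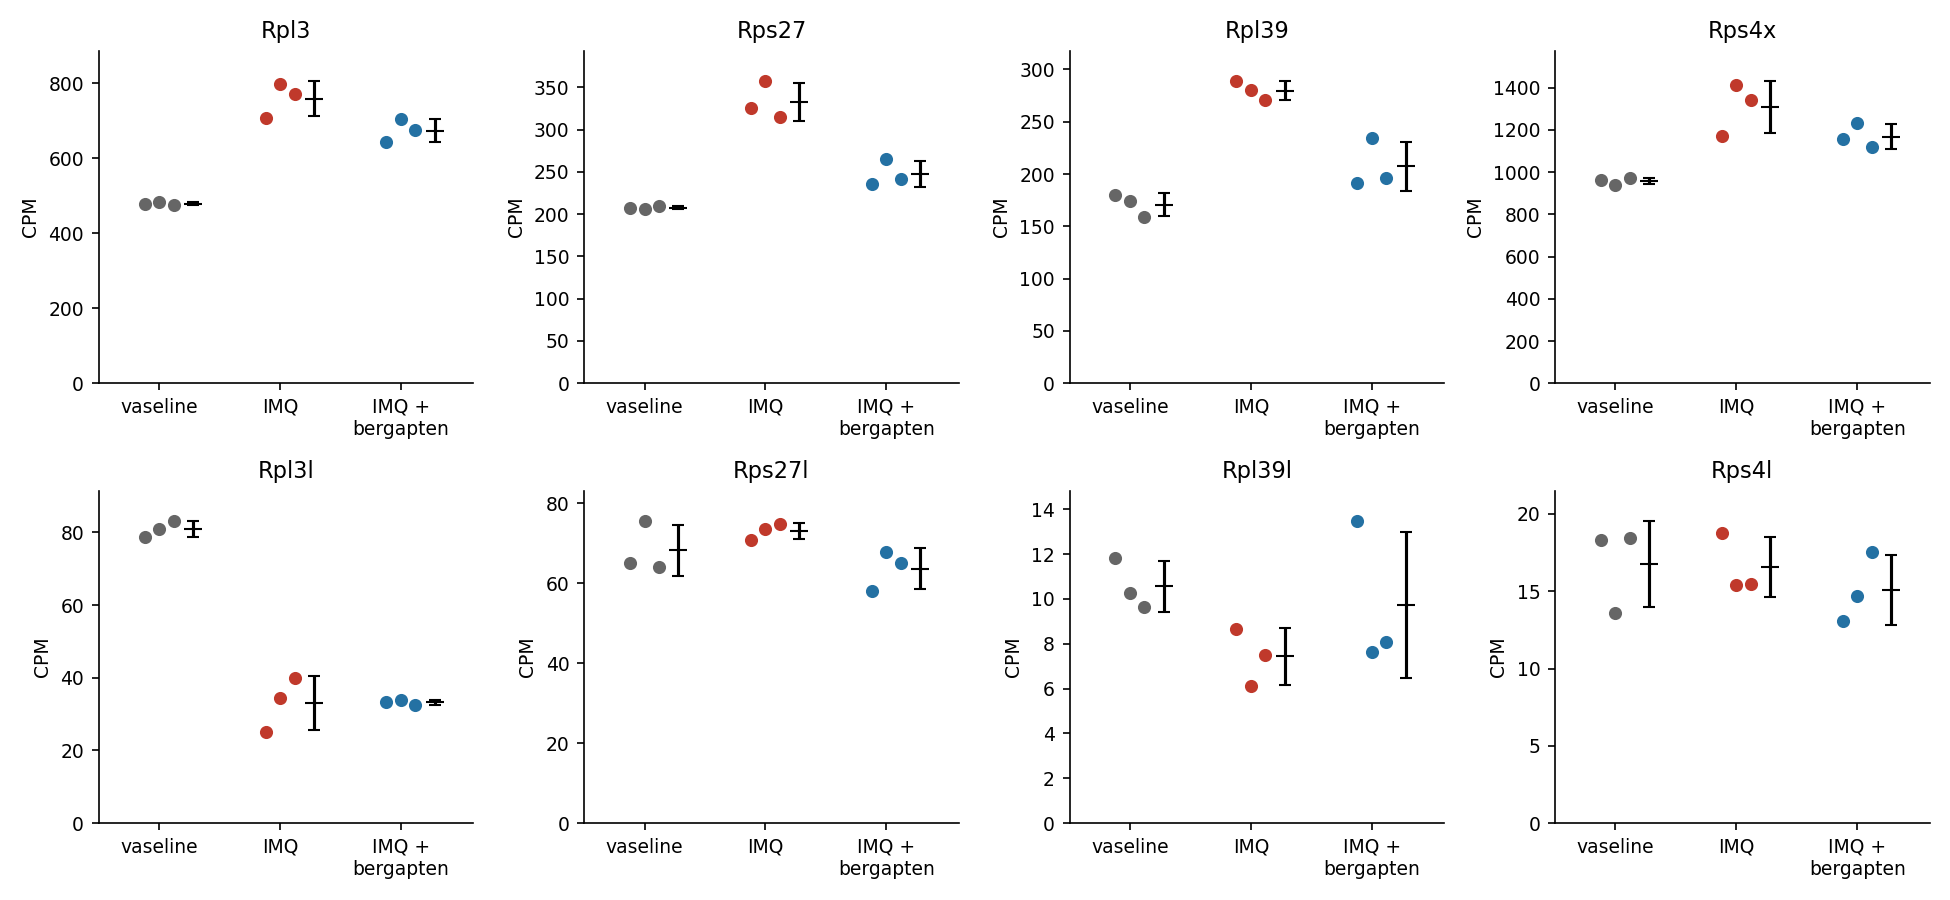
Level in CPM of Rpl3, Rps27, Rpl39 and Rps4x (top) and of their paralogs Rpl3l, Rps27l, Rpl39l and Rps4l (bottom) in each library. Points are libraries and bars are the mean with SD (n = 3). The upper genes have their lowest mean in vaseline and the lower genes do not. Rpl3l, Rpl39l and Rps4l have their highest mean in vaseline, and only for Rpl3l do all vaseline libraries lie above all others.

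Within imiquimod skin the set lay a little lower with bergapten, and few single genes passed the test. In IMQ + bergapten against IMQ, 11 of 80 members fell and 1 rose, while 4.83% of all genes tested were called, 2.65% lower and 2.18% higher. The median log2 fold change was -0.25, a fold of 0.843, beside -0.01 over all genes, and 73 of 80 members lay below 0. The groups did not overlap, with bergapten lower, for 53 of 80 members and for 13.2% of all genes tested. Large subunit genes had a median of -0.24 with 7 falling, and small subunit genes -0.27 with 4 falling. Among the calls that fell were Rpl18, Rpl35, Rpl36, Rpl37, Rpl37a, Rpl39, Rps3, Rps20, Rps21 and Rps27, and the log2 fold changes of the calls ran from -0.56 for Rpl35 to -0.32 for Rps3.

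Rpl37, a small protein of the large subunit, was at 362, 384 and 359 CPM in IMQ and 264, 289 and 265 CPM with bergapten, near its vaseline levels of 252, 253 and 223 CPM. Its log2 fold change against IMQ was -0.43 ± 0.08 (SE; adjusted p = 0.0197, edgeR). Rps27 had a log2 fold change of -0.42 ± 0.08 (adjusted p = 0.0204). Rpl39 went from 289, 280 and 270 CPM in IMQ to 192, 234 and 196 CPM with bergapten, a log2 fold change of -0.43 ± 0.10 (adjusted p = 0.0346). Rpl35, at the rim of the exit tunnel, was at 56.0, 46.6 and 48.8 CPM in IMQ and 28.5, 39.1 and 35.0 CPM with bergapten, with vaseline at 26.6, 28.7 and 30.3 CPM. Its log2 fold change was -0.56 ± 0.13 (adjusted p = 0.0373). For Rps21 it was -0.42 ± 0.10 (adjusted p = 0.0493).

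The number of calls between the 2 imiquimod groups was not stable. It was 12 over all 9 libraries, 1 when only the 6 compared libraries were fitted and 33 with DESeq2. Without bergapten replicate 1 or replicate 3 it was 1, with none of the 11 lower calls left, and without bergapten replicate 2 it was 6. Without any one of the vaseline libraries it was 3. These libraries are in neither group compared, but they enter the filter, the scaling and the estimate of spread. Calls over all genes tested moved in the same way. They numbered 869 over all 9 libraries, 130 with only the 6 compared libraries and 1866 with DESeq2. Without bergapten replicate 1, 2 or 3 they numbered 139, 332 and 176. The median log2 fold change of the members stayed between -0.29 and -0.20 in all of these fits.

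Rps2, a protein of the decoding centre, was the 1 member called higher with bergapten. This call was on its own row, and the sum with its copies was not called. Its row held 830, 632 and 683 counts in vaseline, 939, 817 and 927 in IMQ and 1107, 1706 and 1691 with bergapten. The log2 fold change of bergapten against IMQ was 0.76 ± 0.11 (SE; adjusted p = 0.00768), and against vaseline it was 0.90 ± 0.11 (adjusted p = 0.000172), while IMQ against vaseline gave 0.14 ± 0.11 (adjusted p = 0.355). Copies held 94.7% of its summed counts, most of them on Rps2-ps10 with 13410, 10563 and 11692 counts in vaseline, 21303, 20841 and 22081 in IMQ and 17253, 20367 and 25294 with bergapten. On the sum, Rps2 was at 796, 745 and 750 CPM in vaseline, 1177, 1187 and 1190 CPM in IMQ and 1118, 1121 and 1404 CPM with bergapten. The sum rose in IMQ by 0.63 ± 0.10 (adjusted p = 0.000564) and gave 0.04 ± 0.10 in bergapten against IMQ (adjusted p = 0.866). With 94.7% of it on copies, the sum mostly follows the copies and cannot decide whether the own row changed. With copies added for every member, 13 members fell and 0 rose with bergapten (edgeR; with 2.69% of all genes in that fit called lower).

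Gel-treated skin still stood above vaseline skin. In IMQ + bergapten against vaseline, 56 of 80 members rose and 1, Rpl3l, fell, while 40.4% of all genes tested were called, 20.9% higher and 19.5% lower. The median log2 fold change was 0.39, a fold of 1.31, beside 0.01 over all genes. With copies added, 61 of 81 members rose and 1 fell, and 21.1% and 19.6% of the genes in that fit were called higher and lower. The 3 comparisons share libraries, so their fold changes are not independent of one another. The mean level with bergapten lay above vaseline and below IMQ for 70 of 80 members and for 23.7% of all genes, and every library followed that order for 46 of 80 members and for 3.62% of all genes.

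**Figure D5:**
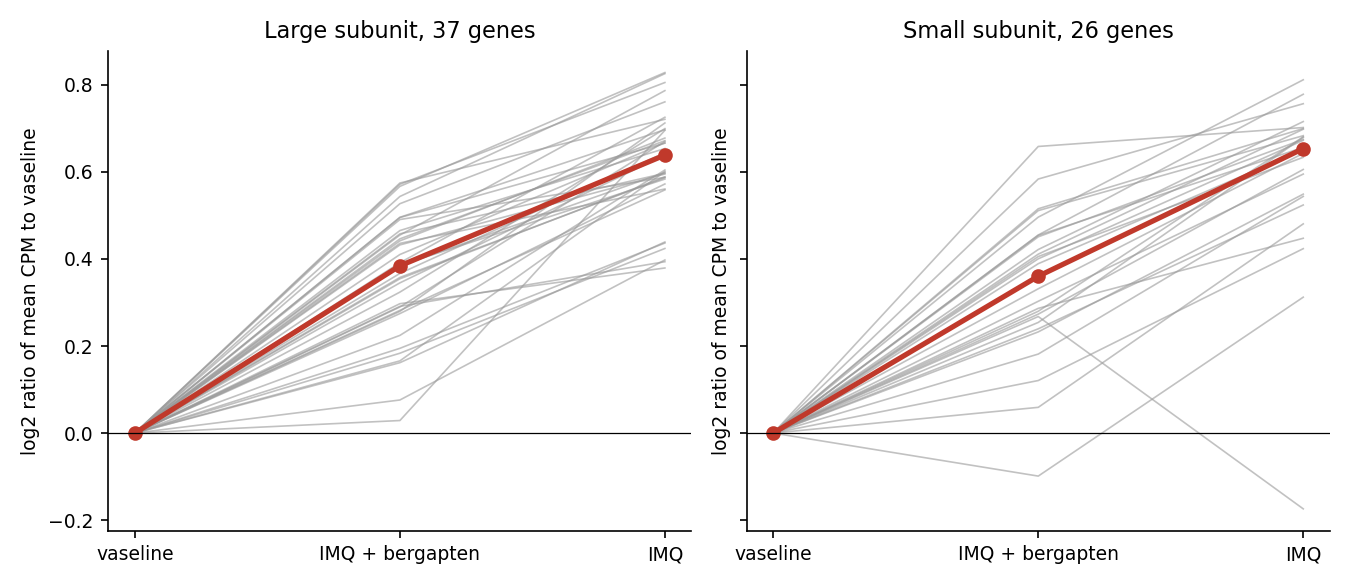
Log2 ratio of the mean CPM to the vaseline mean for the 37 large and 26 small subunit genes at 100 CPM or more. Grey lines are genes and the red line is the median over them. The median lies at 0.38 and 0.36 with bergapten and at 0.64 and 0.65 in IMQ, the grey line below 0 in IMQ is Rps27a, and the one below 0 with bergapten is Rps28.

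Genes that work with the ribosome, taken from lists beside the members, were set next to these values. Of 9 tested ribosomal genes outside the name pattern 6 rose in IMQ (median log2 fold change 0.61), among them the small subunit proteins Rack1 (0.74 ± 0.08 SE) and Rpsa (0.61 ± 0.08). Of 22 further genes with pyrimidine-tract messenger RNAs, most of them translation factors but also others such as Npm1 and Vim, 19 rose and 2 fell (median 0.48), with Pabpc1, the poly(A)-binding protein, at 0.92 ± 0.07. Of 32 ribosome biogenesis genes 31 rose (median 0.76), such as Ncl, which encodes nucleolin, at 0.86 ± 0.10. Of 14 genes of RNA polymerase I and its factors 8 rose. Over all genes tested 23.0% were called higher and 20.2% lower. Of 77 mitochondrial ribosomal protein genes 11 rose, a smaller share than over all genes, and 2 fell (median 0.13).

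With bergapten, none of the 32 biogenesis genes passed the test against IMQ (edgeR; median -0.13), nor did any of the 14 polymerase I genes, while 2.65% of all genes tested were called lower and 2.18% higher. Of the 22 further genes with pyrimidine tracts 3 fell, the translation factor gene Eif3e (-0.47 ± 0.10 SE), Tpt1 (-0.38 ± 0.09) and Naca (-0.31 ± 0.08), with edgeR adjusted p of 0.0288, 0.04 and 0.0442. Vim, which encodes a filament protein, rose (0.67 ± 0.09, adjusted p = 0.00652). Of 7 small nucleolar RNA host genes, whose transcripts also start with pyrimidines, 3 fell (median -0.42), among them Snhg5 at -0.46 ± 0.10 (SE; adjusted p = 0.0383). Among 22 genes of growth control 2 fell and 0 rose, while in IMQ against vaseline 12 rose and 1 fell. Eif4ebp1, an inhibitor of translation initiation that mTOR switches off, was 80.1 ± 2.91 CPM in vaseline, 145 ± 19.9 in IMQ and 74.3 ± 8.02 with bergapten (SD, n = 3), a log2 fold change of -0.96 ± 0.12 against IMQ (SE; adjusted p = 0.00385). Mxd1, which antagonises Myc, went from 137 ± 21.4 to 82.7 ± 9.59 CPM (log2 fold change -0.73 ± 0.13, adjusted p = 0.0163). Myc itself was not called against IMQ. It was 47.4 ± 4.71 CPM in vaseline, 75.4 ± 5.79 in IMQ and 68.0 ± 2.76 with bergapten (SD, n = 3). Against vaseline it rose in IMQ by 0.67 ± 0.10 (SE; edgeR adjusted p = 0.000355) and with bergapten by 0.52 ± 0.10 (adjusted p = 0.00178).

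Promoters of the members share sequence that the name pattern did not use. RefSeq windows (GRCm38.p6) from 250 bases before to 50 bases after the start were matched by symbol for 60 members, in 72 windows. CTTCCG or its reverse complement, the core of the motif bound by ETS factors, was in 59.7% of member windows and in 16.9% of all 32851 windows. CTTTCC was in 48.6% against 26.6% and TATAAA in 9.72% against 13.6%, each on both strands. Stretches from 120 bases before to 20 bases after the start are shown for 3 of the members with the smallest p in IMQ that hold CTTCCG there, in capitals, and for Rpl3l, the member that fell.
Rpl11: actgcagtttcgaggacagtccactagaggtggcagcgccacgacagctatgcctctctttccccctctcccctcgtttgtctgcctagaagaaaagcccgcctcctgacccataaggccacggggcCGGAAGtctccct
Rpl36a: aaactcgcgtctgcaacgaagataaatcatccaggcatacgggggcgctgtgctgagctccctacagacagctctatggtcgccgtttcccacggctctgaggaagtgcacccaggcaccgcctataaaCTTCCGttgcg
Rps25: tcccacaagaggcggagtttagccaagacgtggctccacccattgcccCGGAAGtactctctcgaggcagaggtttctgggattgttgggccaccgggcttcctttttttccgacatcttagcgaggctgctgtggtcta
Rpl3l: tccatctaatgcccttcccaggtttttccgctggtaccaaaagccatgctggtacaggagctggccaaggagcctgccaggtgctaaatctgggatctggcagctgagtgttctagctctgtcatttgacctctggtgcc
These stretches lie at chr4:136053374-136053513 (minus strand), chrX:134585534-134585673 (plus strand), chr9:44407594-44407733 (plus strand) and chr17:24727706-24727845 (plus strand) in GRCm38.p6. Rpl36a rose by a log2 fold change of 0.67 ± 0.08 and Rps25 by 0.72 ± 0.08 in IMQ (SE; adjusted p = 7.39e-05 and 7.42e-05). The 3 risen members shown were picked for holding CTTCCG, so the stretches do not compare risen members with Rpl3l. A match is a description of the letters and does not show binding.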

How the data were processed

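Per the submitters' processing notes, Trimmomatic, HISAT2 and HTSeq 0.6.0 were used with the GRCm39 build. The deposited table gives raw read counts per library and FPKM values made by the authors, and 2 rows that name no gene were left out. A single model with a mean per group was fitted to the counts of the 9 libraries in edgeR 4.0.16 (TMM, filterByExpr with minimum count 10 and total 15, robust quasi-likelihood F test, two-sided), with Benjamini-Hochberg adjustment over 18005 genes and a threshold of 0.05. Standard errors are the absolute log2 fold change over the square root of F. CPM are counts scaled to the TMM-adjusted library totals. FPKM served only to compare levels between genes. The members and gene lists were chosen with earlier results of these data known. Members to name were those with a listed role, the largest and smallest changes, the smallest p, those not passing and the ends of the FPKM order. Copies are other genes that hold at least 30% of a member's 31-base coding windows in GENCODE M21 transcripts. Alternatives were RLE, upper quartile and no normalization factors, DESeq2 1.42.0, no filter, the 6 compared libraries, a replicate block, each library left out, and copies summed. The deposited quality sheet was not used. Some members are not reported here by name.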

Additional observations from a re-analysis of the deposited data

How the results depend on the processing

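Calls in IMQ against vaseline (66 to 75 of the members, 71 as reported) and in IMQ with bergapten against vaseline (39 to 67, 57 as reported) stayed within 1.5 times the reported count in all alternatives. In IMQ with bergapten against IMQ the count of 12 became 33 with DESeq2, 1 with only the 6 compared libraries and 3 with the replicate block, and it was between 1 and 17 when single libraries were left out. Over all genes tested the count of 869 became 1866, 130 and 489 in the same fits. It was between 139 and 1711 when single libraries were left out. The share of counts on the members moved with its definition: without the 20 genes with most counts it was 3.67% in vaseline, 5.33% in IMQ and 4.75% with bergapten, and with copies summed 3.65%, 5.76% and 5.08%. The order of the groups was the same under both. Some members that were not called changed sign in IMQ against vaseline. Rpl30 was at 0.375 with copies summed, 0.004 with the replicate block and -0.427 to 0.433 with single libraries left out. Rpl21, called higher on its own row, was at -0.063 with copies summed. Rps27a was at 0.07 with the replicate block and -0.481 to 0.519 with libraries left out. Rps4l was at 0.035 with library totals alone and -0.183 to 0.031 with libraries left out. Rps10 ranged from -0.272 to 0.977 with libraries left out, and Rpl3l in bergapten against IMQ from -0.163 to 0.16. The cause of these changes was not tested. Same-numbered samples did not deviate together (correlations from -0.109 to 0.205), so the replicate numbers were not taken as pairs. With library totals alone the median of all genes was 0.11 in bergapten against vaseline, against 0.01 as reported, and the member median was 0.49. With 3 libraries a group an exact permutation test cannot go below 0.1, so single values rest on the fit across genes.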

Other observations

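Rps27l is a known p53 target, and p53 itself and other genes of that pathway were read beside it, chosen with results of these data known. Trp53, which encodes p53, was at 48.0 ± 2.30 CPM in vaseline, 63.9 ± 12.1 in IMQ and 67.2 ± 1.1 with bergapten (SD, n = 3), and rose in IMQ by a log2 fold change of 0.41 ± 0.12 (SE; adjusted p = 0.0207, edgeR). Mdm2, the p53 inhibitor that free Rpl5 and Rpl11 bind, was at 60.5 ± 3.83, 59.1 ± 0.966 and 58.5 ± 2.09 CPM, with no call in IMQ against vaseline (log2 fold change -0.03 ± 0.08, adjusted p = 0.755). Cdkn1a, a p53 target that halts the cell cycle, was at 89.6 ± 8.84, 167 ± 63.0 and 87.9 ± 14.9 CPM. It rose in IMQ by 0.90 ± 0.24 (adjusted p = 0.0152) and was -0.93 ± 0.24 in bergapten against IMQ (adjusted p = 0.0651).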
